A study of Danio rerio with 3 samples.

Results

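Genes whose products copy and mend DNA were followed in zebrafish (Danio rerio) embryos at 22 hours post fertilization (hpf). Embryos injected at the 1-cell stage with MO-grnA, a morpholino directed at the granulin A gene, were compared with wild-type embryos that received no treatment. Genes were taken by symbol, from the probe's accession to its RefSeq gene, where the symbol began with mcm, orc, pola, pold, pole, rfc, gins, rpa, prim, fanc, msh, mlh, xrcc, ercc or rad5, or was pcna, fen1, lig1, cdt1, gmnn or brca2. This gave 74 genes on 115 probes, of 11668 named genes on the array. Of these, 39 act in replication, 32 act in repair, and 3 (ercc6l, rpap2 and rpap3) share only the start of the name. RNA was measured on 3 arrays with 2 colours, labelled as biological replicates, each of which set pooled morphant RNA against pooled wild-type RNA. The design gives 200 embryos per group without saying whether this is per array, and an injection of 2 to 3 nl. Morphant RNA carried the red dye (Cy5) on replicates 1 and 2 and the green dye (Cy3) on replicate 3, the dye swap. No injected control was part of the arrays, so injection itself and an effect on granulin A cannot be told apart.

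DNA is copied once per cell cycle. The origin recognition complex (ORC) and Cdt1 load the ring-shaped MCM helicase at origins, GINS helps to activate it, primase and the polymerases copy the strands, and the PCNA clamp holds the polymerases on DNA. Repair genes remove damaged bases, mismatches, crosslinks and breaks, and several work at stalled forks. In embryos replication genes are used most by dividing cells, among them the neural progenitors of the brain and retina.

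Values are log2 ratios of morphant over wild-type signal, given per array and as the mean of 3 arrays with its moderated standard error (SE, n = 3). The text writes "rose" and "fell" only of genes past an adjusted p of 0.05 in limma, over 25071 tested probes. Each gene is represented by its brightest tested probe. Whole embryos were used, so fewer cells of a type and less RNA per cell cannot be told apart. Of 21 markers of embryonic tissues named on the array, 19 were well above background, including markers of nervous system, muscle, blood and heart. The endothelial marker kdrl and the endoderm marker sox17 were not. Spots well above background numbered 28635 to 31551 per array for morphant RNA and 28822 to 31010 for wild-type RNA. Replicate 1 lay on a slide of its own and replicates 2 and 3 shared another. On replicate 1, 7.49% of spots carried a mark for uneven or outlying pixels, against 0.915% and 0.909% on the others.

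Replication and repair transcripts changed about as much as other genes, with a median log2 ratio size, sign ignored, of 0.21 against 0.22 for all named genes. More of those that changed rose than fell. Of 71 replication and repair genes 65 could be tested, and 18 rose, 6 fell and 41 did not pass. This is a called share of 36.9%, near the background of 41.3% over all 9231 tested named genes. By direction, 27.7% of these genes rose and 9.23% fell, where 19.3% of all named genes rose and 22.0% fell. The median log2 ratio was 0.16, against 0.0 for all named genes, and 51 of 65 genes lay above 0. A log2 ratio of at least 1 in size was reached by 2 genes, pole3 and fancl, both lower in morphants, and by 4.17% of all named genes. These probes were bright, with a median of 13.34 in mean log2 intensity against 10.96 for all named genes. Among 3594 named genes with a mean of at least 12, 17.5% rose and 22.6% fell (40.1% in all), while 13 of 43 such replication and repair genes rose and 3 fell. With median centring in place of loess, none of the 65 rose and 1 fell, against 142 rises and 123 falls over all named genes.

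**Figure D1:**
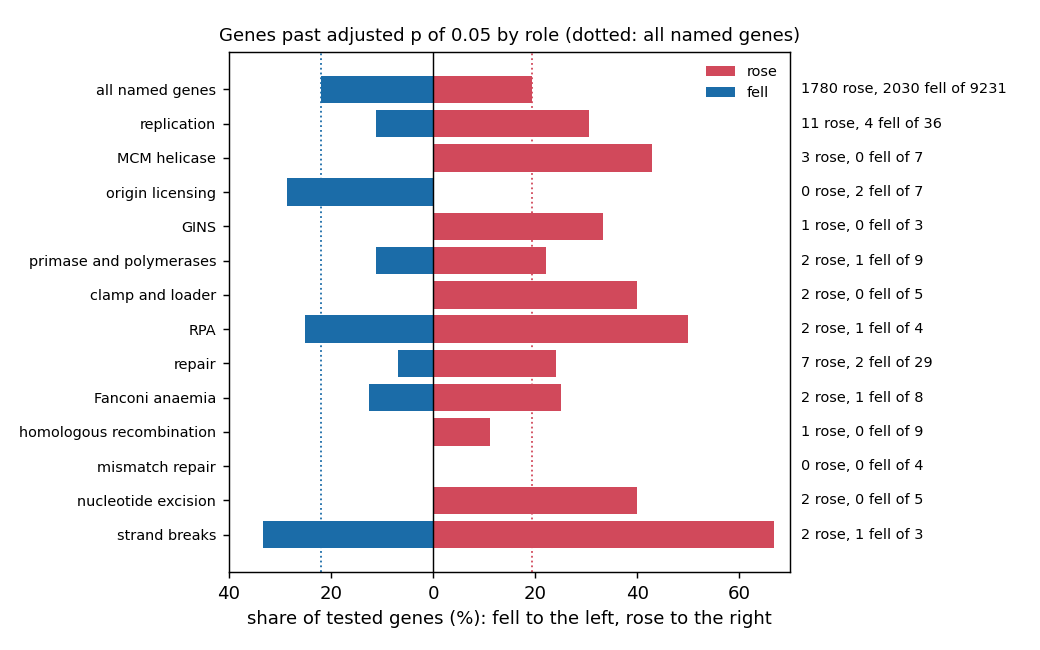
Share of tested genes in percent that rose (red, to the right) and fell (blue, to the left) in morphants by role, with dotted lines at the shares of all named genes. Replication genes had 11 rises and 4 falls of 36 and repair genes 7 and 2 of 29. Several roles hold only 3 to 5 tested genes.

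The replication genes that rose included mcm4, mcm5, pcna, pold2, pold3, rpa2 and rpa3, and those that fell included gmnn and pole3. Of 36 tested, 11 rose, 4 fell and 21 did not pass, a called share of 41.7% that is practically the 41.3% of all named genes. By direction 30.6% rose and 11.1% fell, against 19.3% and 22.0%. Their median was 0.19 over the arrays, and 0.18, 0.15 and 0.22 on the single ones. Without replicate 3, 9 rose and 2 fell, and without replicate 2, 8 rose and 3 fell. Of 9231 named genes, 1090 rose and 1465 fell without replicate 3, and 1295 rose and 1524 fell without replicate 2.

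The MCM proteins form the ring that unwinds DNA ahead of the fork. All 7 tested members of this group had a mean above 0, with a median of 0.33, and 3 rose. The called share was 42.9%, near the 41.3% of all named genes. The transcript of mcm4, a ring subunit, gave 0.90, 0.49 and 0.39 on replicates 1, 2 and 3, a rise of 0.59 (SE 0.11, 1.51-fold, adjusted p = 0.00448). All arrays were above 0, and replicate 1 was the highest. A brighter mcm4 probe, not tested because its spot on replicate 3 was marked, read only 0.19 and 0.20 on replicates 1 and 2. With marked spots kept it averaged 0.14 (adjusted p = 0.219, in a range of 3.0e-06 to 0.299 for mcm4 over the alternatives), so the size of the mcm4 value depends on the probe. For mcm5, also of the ring, the values were 0.60, 0.30 and 0.43 (mean 0.44, adjusted p = 0.00656), and a dimmer probe gave 0.17, which did not pass (adjusted p = 0.182). A brighter mcm5 probe, marked on replicate 3, read 0.68 and 0.83 on the other arrays. For mcm6 they were 0.51, 0.26 and 0.21 (mean 0.33, adjusted p = 0.0252), and 2 further probes rose as well, at 0.45 and 0.27. The brightest mcm6 probe, marked on replicate 3, went against these with 0.06 on both other arrays, and averaged -0.01 with marked spots kept (adjusted p = 0.958). Dropping replicate 1, 2 or 3 moved the adjusted p of mcm6 to 0.0935, 0.059 or 0.0596, in a range of 0.00173 to 0.958 over all alternatives. The subunit mcm3 (0.22), the replication initiation factor mcm10 (0.16) and the MCM-binding gene mcmbp (0.25) did not pass. The lowest of the group, mcm10, read 0.23, 0.11 and 0.15 (SE 0.08, adjusted p = 0.145).

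The brightest of the tested replication and repair genes, mcm7, encodes a ring subunit, and its arrays disagreed. Its log2 ratio was 1.01 on replicate 1 and 0.77 on replicate 2 but -0.17 on the dye swap, so that the mean of 0.54 (SE 0.20) had an adjusted p of 0.0652. Before the swap was turned, red exceeded green on every array, by 1.01, 0.77 and 0.17. With a dye term the log2 ratio was 0.36 (adjusted p = 0.0433), and without replicate 3 it was 0.89 (adjusted p = 0.00814). The helicase subunit mcm2 could not be tested, since its spot on replicate 2 was marked. With marked spots kept it gave 0.64, 0.41 and 0.11 (mean 0.39, adjusted p = 0.0308). As replicate 3 is the only dye swap, dye and replicate cannot be told apart here. The values of mcm7, mcm2 and the other genes whose dye swap differed were chosen for mention after they were seen.

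Of 7 tested genes of origin licensing, none rose, 2 fell and 5 did not pass. The called share was 28.6%, all of it falls, where 19.3% of all named genes rose and 22.0% fell. Geminin, encoded by gmnn, binds Cdt1 and blocks relicensing. Its transcript read -0.80, -0.48 and -0.94, a mean of -0.74 (SE 0.10, 1.67-fold lower, adjusted p = 0.00125). All 3 arrays were clearly below 0, the dye swap furthest. The largest ORC subunit gene, orc1, read -0.35, -0.35 and -0.41 (mean -0.37, SE 0.08, adjusted p = 0.00848), with hardly any spread between arrays. Its adjusted p was 0.0513 if replicate 3 was dropped and ran from 0.00228 to 0.774 over the alternatives. The highest of the group was orc3, an ORC subunit, at 0.16, 0.16 and 0.45 (mean 0.26, SE 0.09, adjusted p = 0.0589). Its second probe rose by 0.29 (adjusted p = 0.0312). Over the alternatives the adjusted p of orc3 ran from 0.0244, for the mean of its probes, to 0.494. The values were 0.0353 if replicate 1 was dropped and 0.0453 once dye entered the model. The subunits orc2 (0.15), orc5 (0.04) and orc6 (0.12) and the loader gene cdt1 (0.13) did not pass. The cdt1 probe was dim, at a mean log2 intensity of 6.95, and the offset used in background correction draws the ratios of dim probes toward 0. The orc4 spot on replicate 1 was marked; with marked spots kept, orc4 had a log2 ratio of 0.33 (adjusted p = 0.0235).

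GINS joins the MCM ring with other factors into the active helicase. The subunit gene gins2 read 0.36, 0.28 and 0.22, a rise of 0.29 (SE 0.08, adjusted p = 0.0259). Dropping replicate 1, 2 or 3 moved this p to 0.0703, 0.108 or 0.0652, none of which passes, and a dye term moved it to 0.0645. Over all its alternatives it ran from 0.0084 to 0.529. The gins3 mean was 0.05. For gins4 the arrays disagreed, at 0.03, -0.34 and 0.23 (mean -0.03, SE 0.11, adjusted p = 0.874). The gins1 probe was well above background on 2 of 3 arrays in morphants and on 1 in wild type, and was not tested.

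Primase and the polymerases held the largest rise and the largest fall among replication genes. Of 9 tested, 2 rose, 1 fell and 6 did not pass, a called share of 33.3% against 41.3% of all named genes. The gene pold3, an accessory subunit of polymerase delta, read 0.96, 0.48 and 0.67, a rise of 0.70 (SE 0.10, 1.63-fold, adjusted p = 0.00158). Its second probe rose less, by 0.31 (adjusted p = 0.0258). The small-subunit gene pold2 rose by 0.40 (SE 0.08, adjusted p = 0.0059), at 0.42, 0.38 and 0.39. The catalytic subunit gene pold1 read -0.20, 0.05 and -0.03, with no shared direction (mean -0.06, SE 0.09, adjusted p = 0.615).

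Polymerase epsilon copies the leading strand. Its histone-fold subunit gene pole3, whose protein is also part of a chromatin remodelling complex, read -1.27, -1.01 and -1.42. The mean was -1.23 (SE 0.10, 2.35-fold lower, adjusted p = 7.6e-05), and all 3 values lay below the lowest value of any other polymerase or primase gene. The catalytic subunit gene pole had a mean of -0.06 (SE 0.09) and the second subunit gene pole2 a mean of 0.19 (SE 0.08), and neither passed. The primase genes prim1 (0.11) and prim2 (0.19) and the polymerase alpha subunit gene pola2 (0.03) did not pass. The 4 probes of prim1 ran from 0.11 to 0.26 and none passed, while the second probe of prim2 rose by 0.32 (adjusted p = 0.0211).

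**Figure D2:**
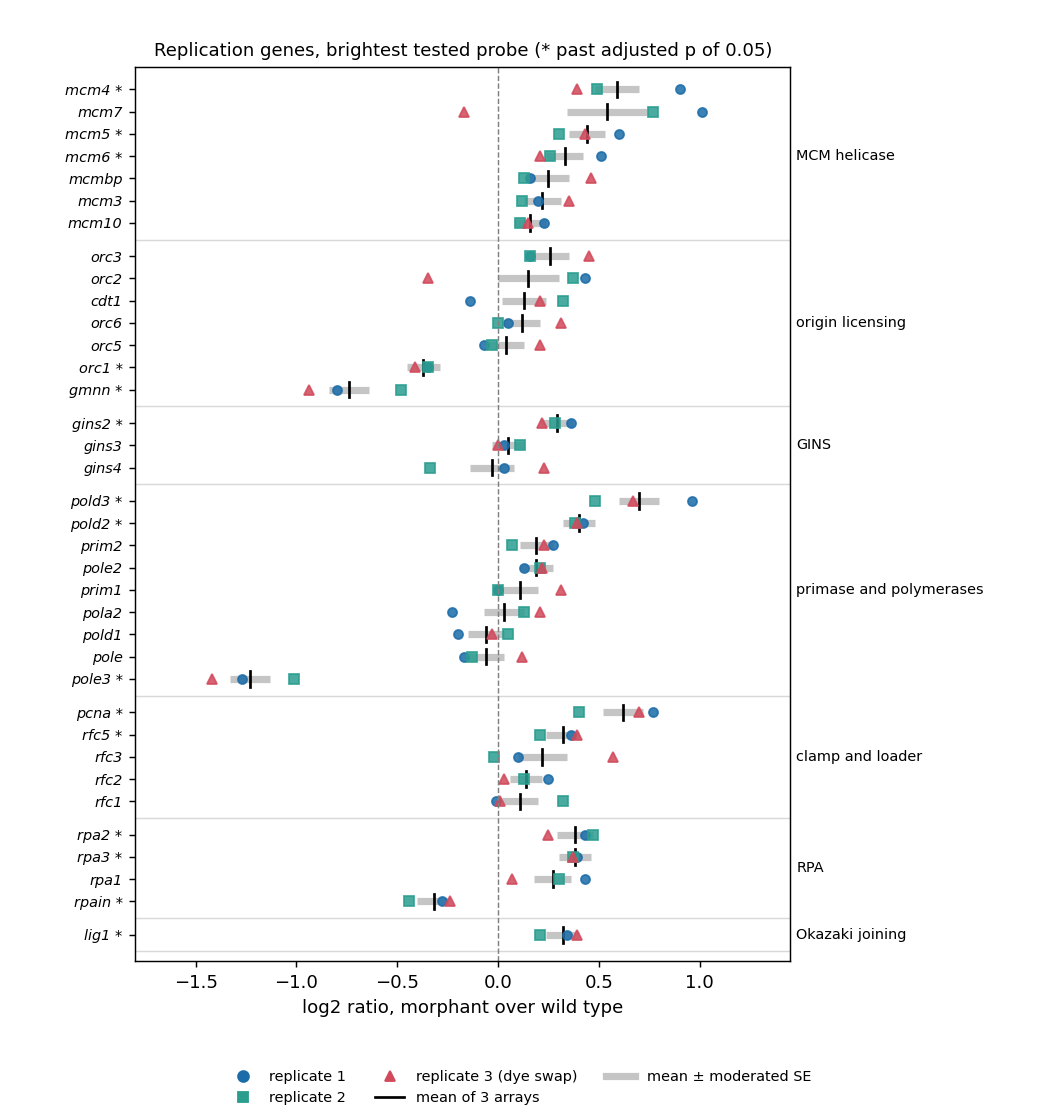
Log2 ratio of morphant over wild type for each tested replication gene, by array (symbols), with the mean (black tick) and moderated SE (grey bar); an asterisk marks genes past an adjusted p of 0.05. Values of pole3 lie between -1.42 and -1.01 and those of gmnn between -0.94 and -0.48, while mcm7 and orc2 have the dye swap on the other side of 0.

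Of 5 tested genes of the sliding clamp and its loader, 2 rose and 3 did not pass. This called share was close to the 41.3% of all named genes, where 19.3% rose and 22.0% fell. The clamp gene pcna read 0.77, 0.40 and 0.70, a rise of 0.62 (SE 0.10, 1.54-fold, adjusted p = 0.00196), with all arrays above 0. A dimmer pcna probe, marked on replicate 1, read 0.51 and 0.33 on the others. Among the loader subunits, rfc5 rose by 0.32 (SE 0.08, adjusted p = 0.0191), and its second tested probe gave 0.29. A brighter rfc5 probe, marked on replicate 1, read 0.13 and 0.24 and did not pass with marked spots kept (adjusted p = 0.118). The rfc5 call was lost if replicate 3 was dropped (adjusted p = 0.0942, in a range of 0.00538 to 0.455). The other loader genes, rfc2 (0.14), rfc3 (0.22) and rfc1 (0.11), did not pass. A dimmer rfc2 probe, marked on replicate 1, read 0.31 and 0.35 on replicates 2 and 3. With marked spots kept it averaged 0.29 (adjusted p = 0.0264). The lowest, rfc1, read -0.01, 0.32 and 0.01 (SE 0.09, adjusted p = 0.398), so its mean rests on replicate 2. DNA ligase 1, encoded by lig1, seals the fragments of the lagging strand. It read 0.34, 0.21 and 0.39, a rise of 0.32 (SE 0.08, adjusted p = 0.02) that did not pass without replicate 3 (adjusted p = 0.0984, within a range of 0.00624 to 0.46 over its alternatives). A brighter lig1 probe, marked on replicate 1, read 0.47 and 0.02 on replicates 2 and 3 and did not pass with marked spots kept (adjusted p = 0.067).

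Replication protein A (RPA) coats single-stranded DNA in replication and in repair. The subunit genes rpa2 (0.43, 0.47 and 0.25, mean 0.38, SE 0.09, adjusted p = 0.00989) and rpa3 (0.39, 0.37 and 0.37, mean 0.38, adjusted p = 0.00719) rose by the same amount. Their second probes gave 0.35 and 0.38. The rpa2 call was lost if replicate 2 was dropped (adjusted p = 0.0649, in a range of 0.00133 to 0.44). The large subunit gene rpa1 had a mean of 0.27 (adjusted p = 0.0572). In contrast, rpain, whose product carries RPA into the nucleus, read -0.28, -0.44 and -0.24 and fell by 0.32 (SE 0.08, adjusted p = 0.0192). That fall lost its call in several alternatives, whose adjusted p ran from 0.00808 to 0.834. The value was 0.136 if replicate 2 was dropped, 0.0554 if replicate 3 was dropped, 0.0556 once dye entered the model and 0.0501 for Agilent's own log ratio. A dimmer rpain probe, marked on replicate 1, read -0.47 and -0.51 on replicates 2 and 3. With marked spots kept it averaged -0.49 (adjusted p = 0.00277).

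Repair genes were mostly near 0, with single large exceptions. Of 29 tested, 7 rose, 2 fell and 20 did not pass, a called share of 31.0% against 41.3% over all named genes. The median was 0.09, with 0.09, 0.12 and 0.13 on replicates 1, 2 and 3. Without replicate 2, 3 rose and 1 fell, where 1295 of 9231 named genes rose and 1524 fell. As a group these probes were dimmer than those of replication genes, with a median log2 intensity of 10.8 against 13.69.

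The Fanconi anaemia proteins act on crosslinks between DNA strands. Of 8 tested, 2 rose, 1 fell and 5 did not pass, a called share of 37.5% against 41.3% of all named genes. The fall was in fancl, the ubiquitin ligase subunit of the core complex, which attaches ubiquitin to Fancd2 and Fanci; zebrafish fancl mutants are known for female-to-male sex reversal. Its brightest tested probe read -1.63, -1.46 and -1.11, a mean of -1.40 (SE 0.11, 2.64-fold lower, adjusted p = 6.9e-05), with all arrays far below 0. The other 2 fancl probes fell too, by 0.63 (adjusted p = 9.1e-04) and by 0.51 (adjusted p = 0.0024). They were dimmer, at mean log2 intensities of 7.73 and 7.40 against 9.07. This was the single one of 24 called replication and repair genes whose call held with median centring (largest adjusted p over alternatives 0.0191). Of the fancl substrates, fanci read 0.39, 0.33 and 0.29 and rose by 0.34 (SE 0.08, adjusted p = 0.0126). This probe was dim, at a mean log2 intensity of 7.64, and the other fanci probe rose by 0.47. The substrate gene fancd2 did not pass, with a mean of -0.13 (SE 0.09, adjusted p = 0.308). A difference between fanci and fancd2 was not tested. The fanci call did not hold without replicate 2 (adjusted p = 0.0609, in a range of 0.00287 to 0.49). The core complex gene fancc rose by 0.29 (adjusted p = 0.0285), a call lost if replicate 1, 2 or 3 was dropped (adjusted p = 0.0919, 0.072 and 0.0905, in a range of 0.00694 to 0.497). The members fance (0.16) and fancg (-0.14) did not pass.

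For the core complex gene fanca and the translocase gene fancm the dye swap lay on the other side of 0, as for mcm7. Values of fancm were 0.58, 0.65 and -0.43 (mean 0.27, SE 0.19), and with a dye term its log2 ratio was 0.09 (adjusted p = 0.428). Values of fanca were 0.22, 0.38 and -0.45 (mean 0.05, and -0.07 with a dye term), and its second probe gave 0.29, 0.31 and -0.39. The same order appeared for orc2 (0.43, 0.37 and -0.35). In 14 of 65 replication and repair genes (21.5%) the dye swap alone had the opposite sign, against 14.0% of all named genes. This count takes both orders. It includes genes with only the dye swap above 0, such as rad51d (-0.22, -0.06 and 0.10) and pole (-0.17, -0.13 and 0.12). Replicate 1 alone was opposite in 9 of the 65 (13.8%, against 8.63% of all named genes) and replicate 2 in 6 (9.23%, against 9.19%). A share above that of all named genes was thus seen for replicate 1 as well as for the dye swap. Dye and replicate 3 cannot be told apart in these genes either.

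Homologous recombination genes mend double-strand breaks from an intact copy. Among 9 tested, 11.1% were called, against 41.3% of all named genes, and the only call was 1 rise. That was xrcc3, which takes part in strand exchange, at 0.61, 0.44 and 0.75 (mean 0.60, SE 0.09, 1.52-fold, adjusted p = 0.00165). All arrays were well above 0. The translocase gene rad54l had a mean of 0.21 (adjusted p = 0.0727), and brca2, a mediator of strand exchange, had 0.0 (SE 0.08). The lowest, rad51d, read -0.22, -0.06 and 0.10 (mean -0.06, SE 0.09, adjusted p = 0.652). The genes rad51b, rad51ap1, rad52 and rad54b lay between 0.01 and 0.09. Probes of rad54b, brca2 and rad51b were dim, at mean log2 intensities of 6.83, 7.0 and 7.22, and the offset draws such ratios toward 0. A brighter rad51b probe, marked on replicate 1, read -0.04 and -0.02 on replicates 2 and 3. With marked spots kept it averaged -0.09 and did not pass (adjusted p = 0.453). Probes of rad52 disagreed, with 0.01 on the brightest and -0.71, -0.58 and -0.31 on the other, which fell by 0.54 (adjusted p = 0.0041). The rad51c probe was marked on replicate 1 and not tested, and with marked spots kept its log2 ratio was 0.32 (adjusted p = 0.0815).

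No mismatch repair gene passed, out of 4 tested, where 41.3% of all named genes did. The highest of the group was msh6, a gene of mismatch recognition, at -0.01, 0.30 and 0.25 (mean 0.18, SE 0.09, adjusted p = 0.162). Without replicate 1, msh6 passed (adjusted p = 0.0474, in a range of 0.0474 to 0.61). The recognition gene msh3 had a mean of 0.03 on a dim probe, at a mean log2 intensity of 6.63.

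Nucleotide excision repair cuts out bulky lesions. Of 5 tested genes 2 rose and 3 did not pass. The called share was near the 41.3% of all named genes, where 19.3% rose and 22.0% fell. The helicase gene ercc3, a subunit of the transcription and repair factor TFIIH, read 0.66, 0.65 and 0.85, a rise of 0.72 (SE 0.09, 1.65-fold, adjusted p = 5.3e-04). A brighter ercc3 probe, not tested because its spot on replicate 1 was marked, went against this rise, at 0.03 and 0.14 on replicates 2 and 3. With marked spots kept it averaged 0.06 (adjusted p = 0.597, in a range of 1.9e-06 to 0.597 for ercc3 over the alternatives), so the ercc3 call rests on the choice of probe. The nuclease gene ercc4 read 0.41, 0.32 and 0.49 (mean 0.41, adjusted p = 0.00651). Its partner ercc1 read -0.01, -0.11 and 0.21 (mean 0.03, SE 0.09, adjusted p = 0.81). The second TFIIH helicase gene ercc2 (0.20) and the transcription-coupled repair gene ercc8 (0.19) did not pass.

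Among genes of break repair, the probes of xrcc1 rose by different amounts. This scaffold of single-strand break repair read 0.19, 0.30 and 0.37 on its brightest probe (mean 0.29, SE 0.08, adjusted p = 0.0269) and 1.21, 1.16 and 1.34 on a probe nearly as bright (mean 1.24, SE 0.08, adjusted p = 3.3e-05). Both rose, so the direction is shared and the size is not. The call of the brightest probe did not hold without replicate 2 (adjusted p = 0.116) or without replicate 3 (adjusted p = 0.118), in a range of 8.9e-05 to 0.48. Ku subunits bind broken ends before they are joined. The Ku gene xrcc6 rose by 0.27 (SE 0.08, adjusted p = 0.0281), at 0.28, 0.30 and 0.24, and its other probes gave 0.37 and 0.24. Dropping replicate 1, 2 or 3 moved the adjusted p of xrcc6 to 0.052, 0.139 or 0.0797, in a range of 0.0119 to 0.521. Its partner xrcc5 was marked on replicate 1 and not tested. With marked spots kept it read 0.62, 0.61 and 0.49 (mean 0.57, adjusted p = 0.00163). The end-joining gene xrcc4, the partner of DNA ligase 4, read -0.52, -0.17 and -0.20 and fell by 0.30 (SE 0.10, adjusted p = 0.044). This fall was near the threshold, and over the alternatives its adjusted p ran from 0.00287 to 0.852. Dropping replicate 1, 2 or 3 gave 0.195, 0.0632 or 0.0983. A dye term gave 0.114, an offset of 10 gave 0.0658 and Agilent's log ratio 0.0986.

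**Figure D3:**
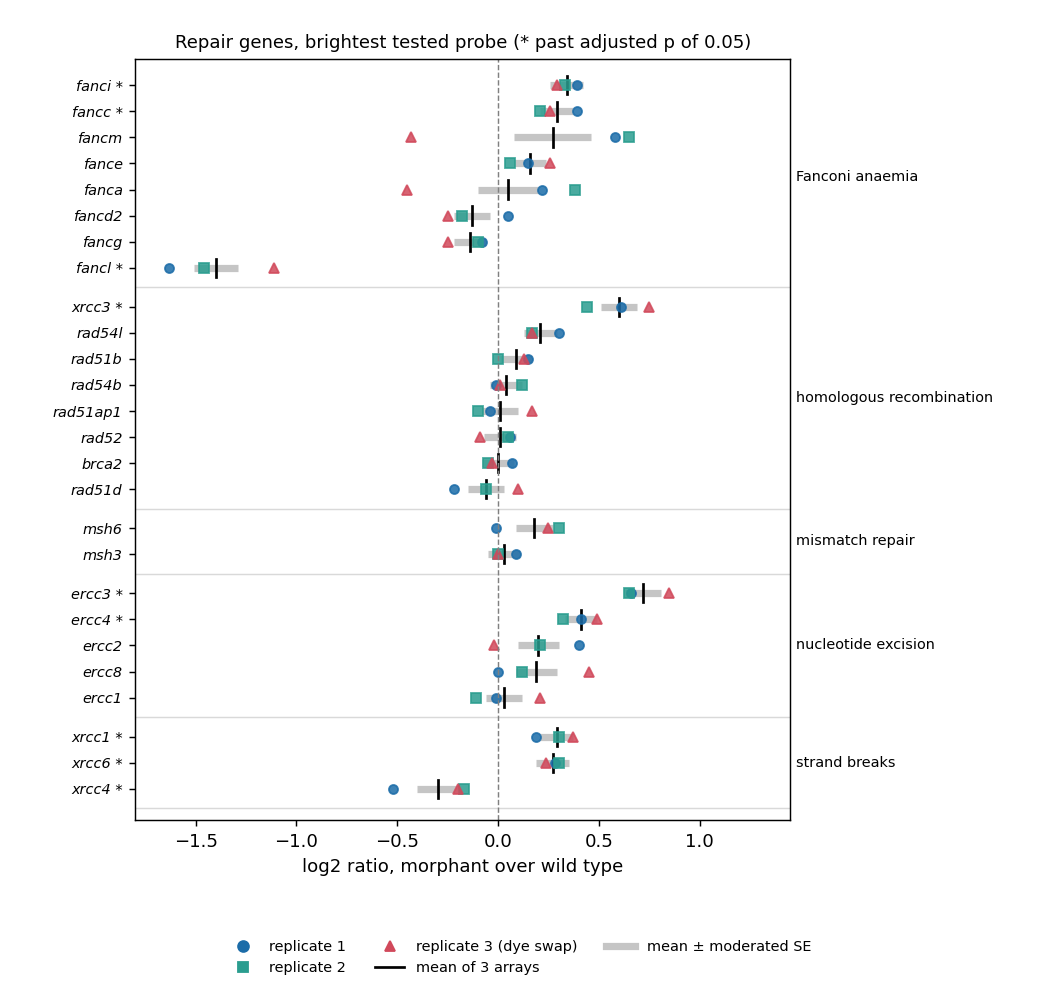
Log2 ratio of morphant over wild type for 26 of 29 tested repair genes, by array (symbols), with the mean (black tick) and moderated SE (grey bar); an asterisk marks genes past an adjusted p of 0.05. Values of fancl lie between -1.63 and -1.11, apart from all others, and fancm and fanca have the dye swap on the other side of 0.

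Set against each other, replication and repair differed by little. The replication median exceeded the repair median by 0.10 over the 3 arrays, and on the single arrays by 0.10, 0.03 and 0.09 in turn. The order was the same on all arrays, and on replicate 2 the difference nearly vanished. Genes are not replicates and 3 arrays cannot give a p below 0.25 in a sign-flip test, so no p is given. Among genes with a mean log2 intensity of at least 12, 11 of 33 replication genes rose and 3 fell, and 2 of 10 repair genes rose and none fell. Of all 3594 named genes that bright, 17.5% rose and 22.6% fell, so the repair rises were near that share. The medians of the bright replication and repair genes were 0.22 and 0.18. On replicates 1, 2 and 3, bright replication genes gave 0.20, 0.16 and 0.23 and bright repair genes 0.09, 0.30 and 0.19. The order among bright genes was thus reversed on replicate 2.

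**Figure D4:**
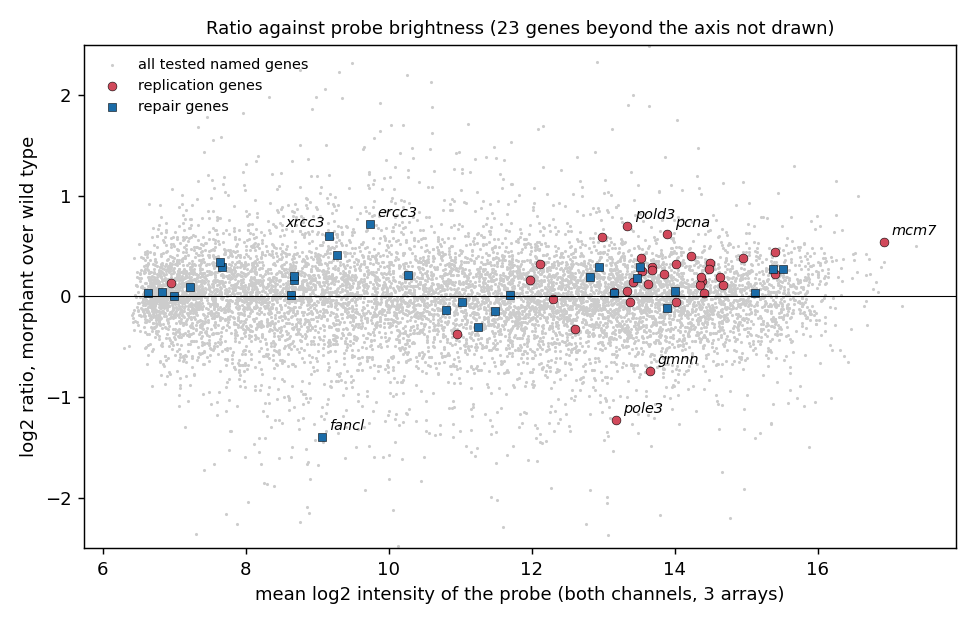
Log2 ratio of morphant over wild type against mean log2 intensity of the brightest tested probe, for all tested named genes (grey), replication genes (red circles) and repair genes (blue squares); 23 genes beyond 2.5 in size are not drawn. Replication genes gather at bright probes and just above 0, and repair genes spread over the whole range of brightness.

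Of 21 replication and repair genes with several tested probes, 18 had all of them within 0.5 of each other and 3 did not, namely fancl, rad52 and xrcc1. Opposite signs were seen for rad52 and for orc5 (0.04 and -0.05). Counted by probe, 29 of 91 tested replication and repair probes rose and 9 fell, where 18.0% of all probes rose and 19.6% fell (37.6% in all). A further 13 probes of tested genes had a marked spot, and 9 of them were brighter than the probe used. Taking the brightest probe of each gene with marked spots kept, 16 of 70 genes rose and 6 fell, and the calls of ercc3, mcm4, mcm6, lig1 and rfc5 were lost. Over all named genes 1900 of 10257 rose and 2234 fell under that setting.

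**Figure D5:**
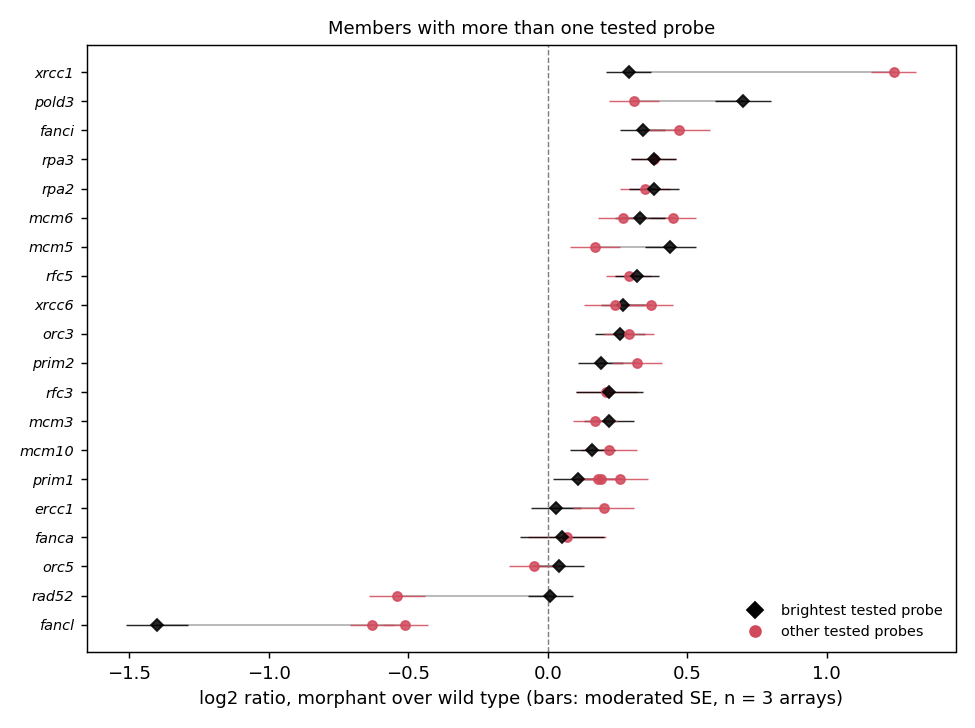
Log2 ratio of morphant over wild type for each tested probe of 20 of the 21 replication and repair genes with several tested probes, with moderated SE (n = 3 arrays); black diamonds are the brightest tested probe and red circles the others. All fancl probes lie below 0, and the xrcc1 probes at 0.29 and 1.24 stand apart.

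The 3 genes that match by name alone all passed, where 41.3% of all named genes did (19.3% rose and 22.0% fell). A share of so few genes says little. The genes ercc6l, a translocase on strained DNA bridges in mitosis, and rpap2, a phosphatase of RNA polymerase II, rose by 0.53 (SE 0.08, adjusted p = 0.00166; 0.58, 0.51 and 0.49) and 0.54 (SE 0.08, adjusted p = 0.00179; 0.48, 0.65 and 0.50). The co-chaperone gene rpap3 fell by 0.27 (adjusted p = 0.0362). They enter none of the counts above.

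Further genes of both pathways, which the symbol rule leaves out, had medians nearer 0. Of 15 tested replication genes, 3 rose, 1 fell and 11 did not pass, with a median of 0.0 and a called share of 26.7%. The rises were uhrf1 (0.56), the topoisomerase gene top1a (0.48) and the RNase H2 gene rnaseh2a (0.37), and the initiation gene ticrr fell (-0.28). Of 40 tested repair genes, 10 rose, 7 fell and 23 did not pass, with a median of 0.04 and a called share of 42.5%, near the 41.3% of all named genes. The thymine glycosylase gene tdg.2 (-1.26, adjusted p = 2.8e-05), the break-sensing gene nbn (-0.97, adjusted p = 1.6e-04) and the damage-marking histone gene h2ax (-0.80, adjusted p = 4.5e-04) fell. The base excision gene neil1 rose by 0.93 (adjusted p = 4.1e-04). The checkpoint kinase genes chek1 (0.43) and chek2 (0.59) and the lesion recognition gene xpc (0.70) rose as well. So did tdg.1 (0.39), unlike tdg.2. Smaller falls were those of h2ax1 (-0.51), parp3 (-0.50), atrip (-0.40) and tp53bp1 (-0.31). All falls are named here, while further rises, between 0.30 and 0.52, are not.

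Markers of proliferation had a median close to that of replication genes. Of 15 tested, 3 rose, 1 fell and 11 did not pass, with a median of 0.21. The called share was 26.7%, against 41.3% of all named genes. The cyclin and kinase genes cdk2 (0.57), ccnb1 (0.48) and ccne2 (0.27) rose, and the retinoblastoma gene rb1, a brake on replication genes, fell (-0.42). The mitotic kinase genes plk1 (0.23), aurka (0.25) and cdk1 (0.21) did not pass. Their part in the replication values was not tested.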

How the data were processed

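The authors scanned 3 Agilent arrays of 2 colours with Agilent Feature Extraction, version 10.5.1.1 per the file headers and 8.5.1.1 per the submitters' processing notes. The deposited files give median spot and background intensity for each dye, processed intensity, and per the file headers also the red to green ratio as log10. The deposited value table held those log10 ratios, with replicate 3 turned (largest difference 4.95e-06), and column medians of 0 on all 3 arrays. Direction rests on the dyes in the labels.

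Here, median intensities were corrected by normexp (offset 50) and loess-normalized within arrays in limma 3.58.1 (R 4.3.3), giving log2 ratios. Control spots and marked spots had weight 0. Replicate 3 was multiplied by -1. A probe was tested if well above background on all 3 arrays in either RNA (28693 probes) with an unmarked spot on each array, which left 25071. No tested probe was saturated. Accessions without versions matched 16770 probes to 11668 symbols of RefSeq assembly GRCz12tu, and 26833 probes stayed unnamed. Coordinates are left out because the headers use an older build, and no sequence table was used here. Log2 ratios were tested against 0 with lmFit and eBayes in a two-sided test, and p-values were adjusted by Benjamini-Hochberg across the 25071 probes. Each alternative was adjusted over the probes it tested, and the mean of a gene's probes over 9231 named genes. Ranges of adjusted p over the alternatives mix these sets. The number of arrays limits the precision. The fit was also run on simulated data, with known changes put into independent noise. These data held no dye, slide or brightness effects, so that run cannot speak to such effects here.

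Per-array values, SE and adjusted p are given for called genes of at least 0.5 in size and for the highest and lowest gene of each role. Other genes are given by mean and count. Some genes are counted but not reported here by name. From the further replication, repair and proliferation lists, called genes of at least 0.75 are named, with some others chosen after their values were seen, as were the untested marked probes. The symbol rule, the role groups and all gene lists were chosen with earlier results of these data known. The bright-gene comparison (mean log2 intensity of at least 12) was also chosen after seeing the data. Alternatives were median centring, Agilent's log ratio, an offset of 10, no filter on dim probes, marked spots kept, the mean of a gene's probes, a dye term, each replicate left out and, added after seeing the data, a slide term and the brightest probe with marked spots kept.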

Additional observations from a re-analysis of the deposited data

How the results depend on the processing

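All 24 called replication and repair genes kept their direction under 11 of 12 alternatives, and 23 under the brightest probe with marked spots kept, where mcm6 turned (-0.01, not passed). Each of the 24 had the same sign on all 3 arrays. Direction thus could not turn when a replicate or the dim-probe filter was left out, or with a dye or slide term. Calls were lost with fewer arrays or another normalization or probe: 19, 15 and 14 stayed called without replicates 1, 2 and 3, 18 with a dye term, 20 with Agilent's log ratio, 23 with an offset of 10, 19 with the brightest probe and marked spots kept, and 1 with median centring. Calls dropped over all named genes too, from 1780 rises and 2030 falls in the main fit. Without replicates 1, 2 and 3 in turn, 1585, 1295 and 1090 rose and 1789, 1524 and 1465 fell. With a dye term 1346 rose and 1592 fell, and with Agilent's log ratio 1673 rose and 1802 fell. With median centring 0 replication genes rose and 0 fell, 0 repair genes rose and 1 fell, and the probes called over the whole array numbered 409 higher and 306 lower. The median of all named genes moved by 0.13 under that setting, and on single arrays the bright named genes lay at 0.61, 0.42 and -0.54 on replicates 1, 2 and 3, opposite in sign on the dye swap. The replication median became 0.39, the repair median 0.26 and their difference 0.14. Set against bright named genes (0.17), the replication median was 0.22 higher (0.21 with loess) and the repair median 0.09 higher (0.11 with loess). Both medians include genes dimmer than that set, so the sets are not matched in brightness. The repair median was 0.14 with Agilent's log ratio and with an offset of 10, and 0.12 with the mean of all probes. With marked spots kept it was 0.12 when repair genes untested in the main fit were added, and 0.09 without them. With a slide term 11 of 29 repair genes rose, where 2257 of 9231 named genes rose. 1 repair gene fell with Agilent's log ratio, an offset of 10 or a dye term. With 1 replicate left out, replication rises ran from 8 to 11 and falls from 2 to 4, repair rises from 3 to 6 with 1 fall, the replication median from 0.17 to 0.22, the repair median from 0.08 to 0.10, their difference from 0.09 to 0.12, and called probes from 2775 to 3876 higher and from 3412 to 4358 lower.

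Signs also turned for genes that had not passed. Not all such genes were followed through the alternatives, so the genes and settings given here are examples and not a full list. Among them were gins4 (0.14 with median centring, 0.02 with Agilent's log ratio, 0.04 with a dye term and from -0.15 to 0.13 with 1 replicate left out), rad51d (0.10 with median centring and from -0.14 to 0.02 with 1 replicate left out), fanca (-0.07 with a dye term) and ercc1 (-0.06 without replicate 3). The cause of these changes was not tested. Slide as a random block was not run, because 3 arrays on 2 slides gave no estimate of the correlation. Each array is itself a morphant and wild-type pair, and the tested log2 ratios use that pairing. No further pairing was possible, because no second group shares the replicate numbers. Dim probes such as cdt1, msh3 and brca2 limit what can be seen, since the offset draws their ratios toward 0.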
